A study of Homo sapiens with 8 samples.

Results

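MT-ND2, MT-ND4, MT-ND5 and MT-CYB are 4 of the 13 protein-coding genes of human mitochondrial DNA (mtDNA) and of its 37 genes in all. They were chosen by name, and each was read on its own (plus) strand within its annotated span. MT-ND2, MT-ND4 and MT-ND5 encode subunits of respiratory complex I, which passes electrons from NADH to ubiquinone, and MT-CYB encodes cytochrome b, the mtDNA-encoded subunit of complex III. The mRNAs are cut out of long transcripts that cover almost a whole mtDNA strand, with tRNAs marking many of the ends. 5-methylcytosine in RNA is made by enzymes of the NSun family, of which NSun3 is known for a mitochondrial tRNA (the tRNA for methionine) and NSun6 for cytoplasmic tRNAs.

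The samples came from HEK293 cells, a widely used line derived from human embryonic kidney. Cells were transfected with Myc-tagged NSun3 or with Myc-tagged NSun6, each mutated so that it stays bound to its target cytosine, and were collected after 24 hours, with 3 miCLIP libraries per enzyme. In miCLIP (methylation individual-nucleotide resolution crosslinking and immunoprecipitation) the trapped enzyme is pulled down and reverse transcription stops beside the bound cytosine, so each read marks a truncation position. NSun6 served as the comparator, and no library of untransfected cells or input RNA was used here. The remaining 2 samples were bisulfite sequencing of poly(A) RNA and stand in 1 table with no replicate error.

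The NSun3 libraries held 47352 to 138921 reads and the NSun6 libraries 305392 to 467586, so a single read was worth 7.20 to 21.1 RPM (reads per 1000000 reads of the library) for NSun3 and 2.14 to 3.27 RPM for NSun6. Reads in mtDNA made up 24.4% to 37.6% of the NSun3 libraries and 8.05% to 9.56% of the NSun6 libraries. The enzyme genes were counted as a check of the labels. NSUN6 had 327, 446 and 333 reads in the NSun6 libraries and 0 in every NSun3 library. NSUN3 had 32, 19 and 0 reads in NSun3 replicates 1, 2 and 3 and 1, 0 and 8 in the NSun6 libraries, so the label of NSun3 replicate 3 was not borne out by this gene. By other measures that library lay with NSun3, with 24.4% of its reads in mtDNA and 18.1% of its mtDNA reads in MT-TM, the gene of the methionine tRNA, against 0.13% to 0.16% in the NSun6 libraries. Several values are also given below without it. Nothing in the labels says that replicates were separate cultures, so tests measure the spread between these libraries only.

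In the numbering of the deposited files, which runs 1 base ahead of the GRCh37 mtDNA reference over these genes, MT-ND2 (ENSG00000198763) spans chrM:4471-5512, MT-ND4 (ENSG00000198886) chrM:10761-12138, MT-ND5 (ENSG00000198786) chrM:12338-14149 and MT-CYB (ENSG00000198727) chrM:14748-15888. None has an intron. The genes are 1042, 1378, 1812 and 1141 nt long and hold 349, 473, 622 and 391 cytosines, 33.5% to 34.3% of their bases. All positions within a gene are counted below from 1 at its first base.

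Both enzymes left reads in each of the 4 mRNAs, and their leading cytosines differed in every gene. The sequences below show the cytosine with the highest mean RPM for each enzyme in each gene, with 10 bases on both sides (21 bases of GRCh37 mtDNA, plus strand, 5′ to 3′). The capital C is the cytosine, and where it is the first base of the motif CTCCA the whole motif is in capitals.
MT-ND2 NSun3, base 358, chrM:4818-4838: agaggttaccCaaggcacccc
MT-ND4 NSun3, base 472, chrM:11222-11242: agtaggctccCttcccctact
MT-ND5 NSun3, base 1359, chrM:13686-13706: tactaaacccCattaaacgcc
MT-CYB NSun3, base 461, chrM:15198-15218: tccgccatccCatacattggg
MT-ND2 NSun6, base 666, chrM:5126-5146: tcaacttaaaCTCCAgcacca
MT-ND4 NSun6, base 1222, chrM:11972-11992: cctatactccCtctacatatt
MT-ND5 NSun6, base 685, chrM:13012-13032: ccaattaggtCTCCAcccctg
MT-CYB NSun6, base 583, chrM:15320-15340: cctagcaacaCTCCAcctcct
In 3 of the 4 genes the leading NSun6 cytosine was the first base of CTCCA. No leading NSun3 cytosine was. In the MT-CYB NSun6 sequence 12 of 13 bisulfite positions fell on C or G, so it does not match the deposited bisulfite positions at every base.

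MT-CYB carried the most reads of the 4 for both enzymes. In NSun3 replicates 1, 2 and 3 it held 2693, 776 and 439 reads, or 16990, 12826 and 8125 RPM per kb, and in NSun6 replicates 1 to 3 it held 1241, 1765 and 1220 reads, or 3358, 3308 and 3501 RPM per kb. Without length, the means were 14430 ± 5060 RPM (SD, n = 3) for NSun3 and 3867 ± 114 RPM for NSun6, a ratio of 3.73. Every NSun3 library lay above every NSun6 library on this scale. The NSun3 libraries were also spread more widely than the NSun6 libraries.

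MT-ND5, the longest of the 4 genes, held 1496, 530 and 307 reads in the NSun3 libraries and 1066, 1317 and 959 in the NSun6 libraries. Its level was 9083 ± 2284 RPM for NSun3 and 3083 ± 242 RPM for NSun6 (n = 3 each), a ratio of 2.95. MT-ND4 held 1558, 604 and 176 reads in the NSun3 libraries and 406, 633 and 408 in the NSun6 libraries, or 8774 ± 4381 and 1314 ± 53.6 RPM, a ratio of 6.68. The MT-ND4 spread came from the library labelled NSun3 replicate 3, which stood at 3717 RPM beside 11215 and 11391 RPM in the others. MT-ND2 was the lowest of the 4 with both enzymes, at 460, 109 and 75 reads for NSun3 and 75, 84 and 82 for NSun6. This gave 2317 ± 893 RPM for NSun3 and 227 ± 44.6 RPM for NSun6, and its ratio of 10.2 was the largest of these ratios. In all 4 genes the enzymes' RPM ranges did not overlap, with NSun3 above, which was so for 5.38% of the 1524 genes tested, while 88.5% had NSun3 below (exact two-sided permutation p = 0.1 for each of the 4, the smallest that 3 against 3 allows). Without NSun3 replicate 3 the NSun3 means were 17010 RPM in MT-CYB, 10382 in MT-ND5, 11303 in MT-ND4 and 2683 in MT-ND2, all above the NSun6 range.

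**Figure D1:**
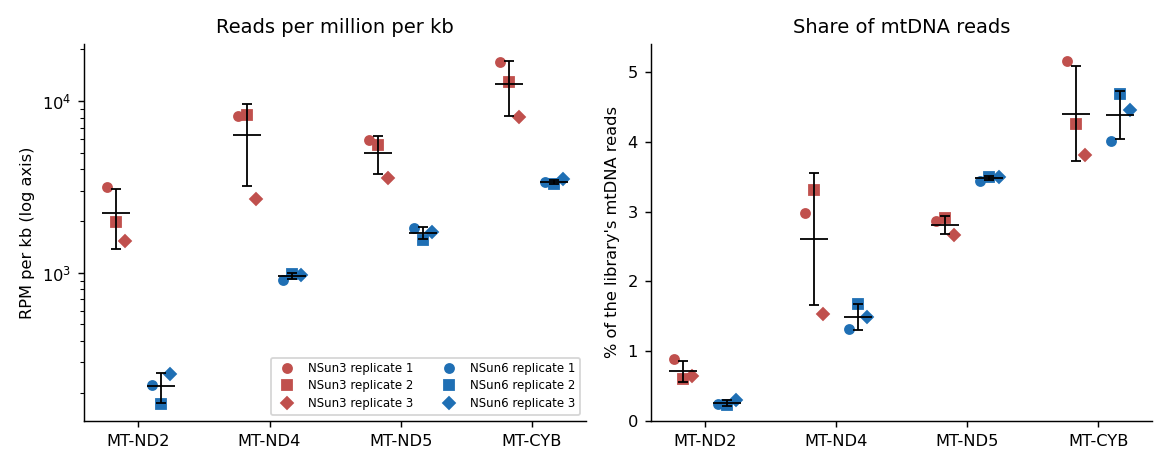
Left, RPM per kb of gene on a log axis, and right, the percent of each library's mtDNA reads on the plus strand of MT-ND2, MT-ND4, MT-ND5 and MT-CYB. Points are single miCLIP libraries (3 per enzyme, red NSun3, blue NSun6) and bars are mean ± SD. On the left every NSun3 point lies above every NSun6 point of the same gene, and on the right MT-CYB and MT-ND4 overlap and MT-ND5 lies lower for NSun3 (2.81% against 3.48% on average), which turns when MT-TM is left out of the mtDNA reads.

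Per kb, MT-CYB was the highest and MT-ND2 the lowest of the 4 in every library of both enzymes. For NSun6 the order ran from MT-CYB through MT-ND5 and MT-ND4 to MT-ND2, with means of 3389, 1701, 954 and 217 RPM per kb and no overlap between neighbours. By NSun3 means it ran from MT-CYB through MT-ND4 and MT-ND5 to MT-ND2, with 12647, 6367, 5012 and 2224 RPM per kb. The NSun3 ranges of MT-CYB and MT-ND4 overlapped, as did those of MT-ND4 with MT-ND5 and with MT-ND2, while MT-ND2 stayed below MT-ND5 in range. The place of MT-ND4 above MT-ND5 rested on NSun3 replicates 1 and 2 (8139 and 8266 against 5943 and 5516 RPM per kb), and in replicate 3 MT-ND4 stood at 2697 and MT-ND5 at 3578, the order of NSun6. Among the 13 mtDNA mRNAs, the 4 took ranks 5, 8, 10 and 12 with NSun3 (MT-CYB, MT-ND4, MT-ND5 and MT-ND2) and ranks 3, 4, 5 and 8 with NSun6 (MT-CYB, MT-ND5, MT-ND4 and MT-ND2). Without input RNA, more RNA and more crosslinking per RNA cannot be told apart.

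Fitted over all genes with TMM scaling, each of the 4 mRNAs was higher in NSun3 by the quasi-likelihood test of edgeR (p adjusted by Benjamini-Hochberg), although MT-ND5 and MT-CYB took the opposite sign when mtDNA genes were fitted alone. The log2 fold change was 4.81 ± 1.08 (SE) in MT-ND2 (adjusted p = 0.0054 in edgeR), 4.14 ± 1.16 in MT-ND4 (0.013), 2.87 ± 1.00 in MT-ND5 (0.029) and 3.31 ± 1.18 in MT-CYB (0.032). Of all genes tested, 88.9% were called, 5.77% higher in NSun3 and 83.1% lower, and the median log2 fold change was -7.47. Changes here are therefore relative to a scaling under which most genes lie far below 0. A gene high in the deeper NSun6 libraries alone can pass the filter on low counts, so this background also rests on the filter. The median was -3.49 in edgeR without the filter and -1.92 in DESeq2. Without NSun3 replicate 3 all 4 were also called, with log2 fold changes of 4.85, 4.26, 2.92 and 3.36 in the same order. Without NSun3 replicate 1 all 4 were called at smaller values, 3.14, 2.84, 1.60 and 1.82. With replicate number as a block in the fit, 0 of the 4 were called.

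Relative to the other mtDNA reads, the 4 mRNAs did not move together. Fitted among the 27 mtDNA genes that passed the filter, where the median log2 fold change was 0.02, MT-ND2 was higher in NSun3 by 1.07 ± 0.34 (edgeR adjusted p = 0.021) and MT-ND5 was lower, at -0.72 ± 0.18 (edgeR adjusted p = 0.0054). MT-ND4 stood at 0.42 ± 0.32 and MT-CYB at -0.40 ± 0.19, and neither passed the test. In this fit 37% of the genes were called higher and 29.6% lower. With RLE scaling, where the median over all genes was -7.85, MT-ND2 stood at 2.37, MT-ND4 at 1.76 and MT-CYB at 0.90, and all 3 were called, while MT-ND5 stood at 0.56 ± 0.34 and was not. MT-ND5 also missed the threshold in DESeq2, and MT-ND5 and MT-CYB missed it in edgeR without the filter on low counts. The sizes thus rest on the reads each value is set against.

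**Figure D2:**
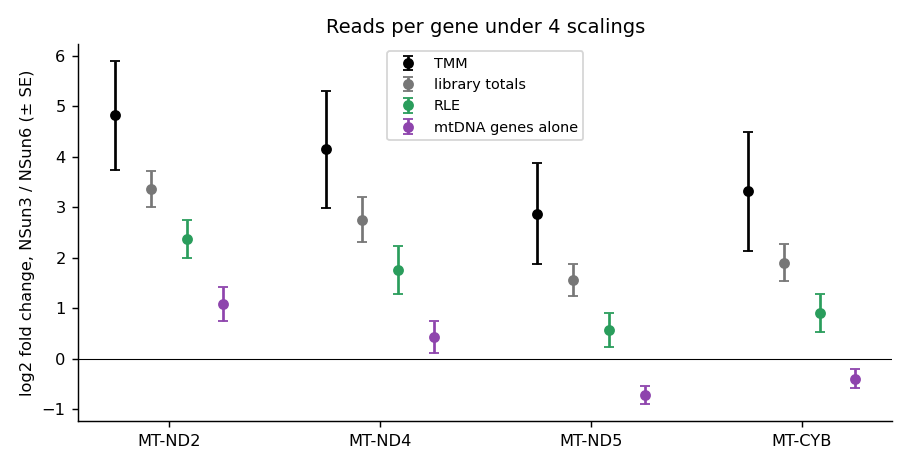
Log2 fold change (NSun3 over NSun6) with its SE for the 4 mRNAs under TMM scaling, library totals alone, RLE scaling, and a fit of mtDNA genes alone (edgeR, 3 libraries per enzyme). The first 3 scalings put all 4 above 0, from 0.56 to 4.81, and the fit among mtDNA genes puts MT-ND5 and MT-CYB below it.

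As a share of each library's mtDNA reads, the 4 mRNAs together took 11.9%, 11.1% and 8.64% in NSun3 replicates 1, 2 and 3 and 9.01%, 10.1% and 9.74% in the NSun6 replicates. The means, 10.5% ± 1.69 and 9.61% ± 0.55, differed by 0.92 percentage points, less than the spread of the NSun3 libraries (exact two-sided permutation p = 0.5, n = 3 per enzyme, smallest p possible 0.1). Without NSun3 replicate 3 the NSun3 mean was 11.5% and both remaining libraries lay above the NSun6 range. Of the reads in the 13 mRNAs, the 4 took 27.8% ± 4.26 for NSun3 and 28.1% ± 1.23 for NSun6. Single libraries stood at 30.63%, 29.96% and 22.93% in NSun3 replicates 1, 2 and 3 and at 27.04% to 29.42% in NSun6. The lower NSun3 mean of this share thus rested on replicate 3, and NSun3 replicates 1 and 2 lay above the NSun6 range.

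Gene by gene the shares split. MT-ND2 took 0.88%, 0.60% and 0.65% in NSun3 and 0.24%, 0.22% and 0.30% in NSun6, with no overlap (exact permutation p = 0.1, adjusted over 37 mtDNA genes 0.17). MT-ND5 took 2.86%, 2.91% and 2.66% in NSun3 and 3.44%, 3.50% and 3.50% in NSun6, also without overlap but with NSun3 below, an order that turned when MT-TM was left out or each truncation position was counted once (exact permutation p = 0.1, adjusted 0.17). The share of genes without overlap was 35.1% with NSun3 above and 24.3% with NSun3 below. MT-ND4, at 2.98%, 3.31% and 1.53% against 1.31%, 1.68% and 1.49%, overlapped through NSun3 replicate 3 (exact permutation p = 0.2). Without that library the NSun3 mean of MT-ND4 was 3.15% beside 1.49% in NSun6, with no overlap. MT-CYB overlapped fully, with means of 4.41% ± 0.69 and 4.38% ± 0.35 (exact permutation p = 1).

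MT-TM took 18.1% to 25.9% of mtDNA reads in NSun3 and 0.13% to 0.16% in NSun6. With MT-TM left out of the denominator, the MT-ND5 shares were 3.57% and 3.49% on average and the lower value in NSun3 was no longer seen (exact permutation p = 0.7). For the 4 genes together that denominator gave 13.4% and 9.63%, without overlap (exact permutation p = 0.1). Genes high in NSun6 stayed in it, such as the tRNA gene MT-TL1 (29.8% of mtDNA reads in NSun6, 4.30% in NSun3) and MT-ND3 (16.8% and 2.59%). Shares without these genes were not computed, so both results hold only for a denominator freed of an NSun3-rich gene.

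The other 9 mtDNA mRNAs, which encode the remaining mtDNA-encoded complex I subunits and parts of complexes IV and V, were read as the pathway list. MT-ND6 did not pass the filter. Of the 8 tested, 6 were called higher in NSun3 and none lower with TMM scaling, beside 5.77% higher and 83.1% lower of all genes tested, with a median log2 fold change of 6.81 beside 3.73 for the 4 mRNAs and -7.47 over all genes. The 6 were MT-ND1, MT-CO1, MT-CO2, MT-CO3, MT-ATP6 and MT-ATP8. MT-ND3 and MT-ND4L were not called with TMM but were called lower with library totals, RLE and mtDNA genes alone.

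By Pearson's r of log2(RPM + 1) over the 6 libraries, given without a test since they form 2 enzyme groups, MT-ND5 was most like MT-CYB (0.994) and MT-ND4 (0.988). MT-CYB was most like MT-ND5 (0.994) and MT-ND4 (0.987), and MT-ND4 most like MT-ND5 (0.988) and MT-CYB (0.987). MT-ND2 was most like MT-RNR1 (0.996), the small ribosomal RNA gene, and MT-TG (0.989), a tRNA gene for glycine.

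Truncations were assigned to the closest C no more than 2 nt away, and a cytosine that exceeded 50 RPM in 2 or all 3 libraries of an enzyme is called a high-confidence site, as in the methods of the study. The 4 mRNAs held 90 such sites for NSun3 and 18 for NSun6 among their 1835 cytosines, and 4 sites were in both sets, all in the first 110 bases of MT-CYB. NSun3 sites numbered 6 in MT-ND2, 25 in MT-ND4, 23 in MT-ND5 and 36 in MT-CYB, or 5.76, 18.1, 12.7 and 31.6 per kb. NSun6 sites numbered 1, 3, 6 and 8 in the same order, or 0.96, 2.18, 3.31 and 7.01 per kb. MT-CYB was thus the densest and MT-ND2 the sparsest for both enzymes.

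These counts depend on depth, because 50 RPM is 7 reads in the deepest NSun3 library and 3 in the other 2. In the NSun6 libraries, where a read was worth 2.14 to 3.27 RPM, it takes more reads. The site counts of the enzymes thus rest on unlike numbers of reads. Over all 3 libraries, 24 NSun3 sites and 11 NSun6 sites passed 50 RPM. The second-highest library of the weakest accepted site had 50.4 RPM for NSun3 and 55.6 RPM for NSun6, and that of the strongest cytosine left out had 43.2 and 47.1 RPM. Without NSun3 replicate 3, with both others over 50 RPM, 81 NSun3 sites stood, all of them among the 90. Without replicate 1 there were 27 and without replicate 2 there were 30. NSun3 replicate 1 had reads at 593 cytosines of the 4 mRNAs and replicate 3 at 55, while the NSun6 libraries had 155 to 380.

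Over the 1835 cytosines, the Pearson correlation of log2(RPM + 1) ran from 0.306 to 0.476 within NSun3, from 0.506 to 0.553 within NSun6 and from 0.053 to 0.279 between enzymes. Points share libraries and depth, so these values are a description.

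**Figure D3:**
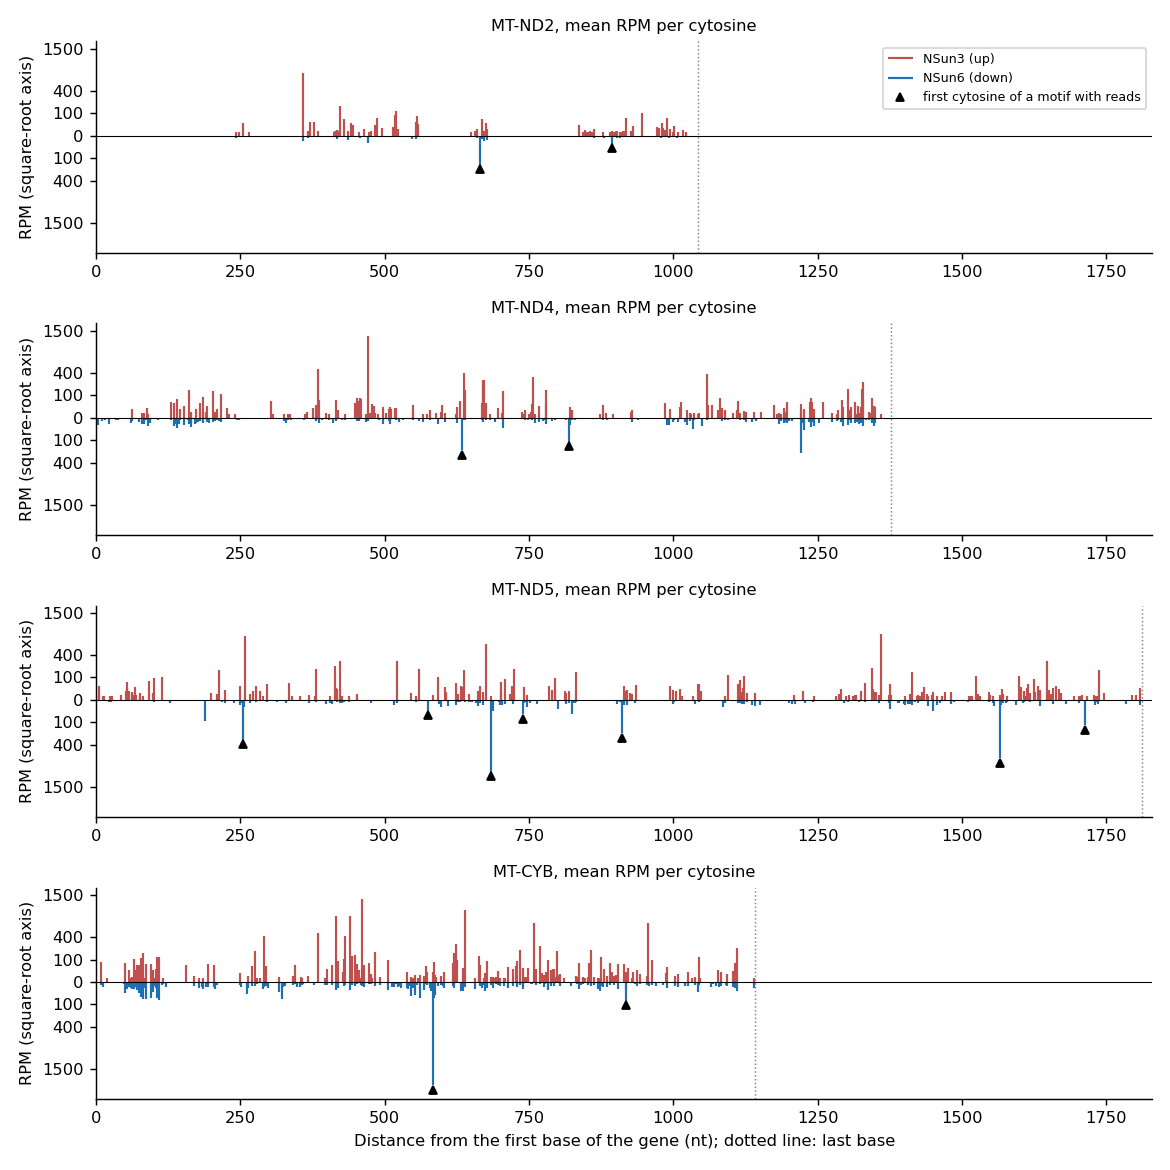
Mean RPM per cytosine (square-root axis) along each mRNA from its first base, with NSun3 drawn upward in red and NSun6 downward in blue (3 libraries each). Triangles mark the first cytosine of a motif occurrence with reads, and the dotted line marks the last base of the gene. The tallest NSun6 bars of MT-ND2, MT-ND5 and MT-CYB stand at motif cytosines, up to 2121 RPM in MT-CYB, and the NSun3 bars are spread over many other cytosines.

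CTCCA was searched in the mRNA sense only, and its first C was taken as the site. A truncation at its T lies equally close to the first C and the next C, and was counted at the first. Read counts and shares at the motif rest on this rule, and were not computed without it. CTCCA occurred 16 times in the 4 genes, so that 0.87% of their cytosines were a first C of the motif. Of the 18 NSun6 sites, 10 were such cytosines (55.6%), and of the 90 NSun3 sites none was. The share depended on the weaker sites, with 10 of 11 without NSun6 replicate 2 or over 50 RPM in all 3 libraries, 9 of 10 over 100 RPM and 12 of 35 over 20 RPM. The motif occurred 2 times in MT-ND2, 2 in MT-ND4, 9 in MT-ND5 and 3 in MT-CYB, and 1, 2, 5 and 2 of these were NSun6 sites. Further occurrences carried NSun6 reads below the threshold, so that 13 of the 16 had reads in every NSun6 library.

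The 3 occurrences without NSun6 reads lay at bases 1170 and 1719 of MT-ND5 and base 127 of MT-CYB. From these positions 57, 33 and 32 nt of mtDNA also occurred without a mismatch in a nuclear chromosome, against 5 to 30 nt for the 13 with reads. The authors kept reads with a single place in the genome, and the part of this in the missing reads was not tested.

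In the NSun6 libraries 66.7%, 56.7% and 63.4% of the cytosine-assigned reads of the 4 mRNAs were at the first C of CTCCA, and in the NSun3 libraries 0.084%, 0.15% and 0%. By gene, the NSun6 mean was 79.2% ± 4.52 in MT-ND2, 25.6% ± 3.32 in MT-ND4, 81.3% ± 6.07 in MT-ND5 and 58.5% ± 5.23 in MT-CYB (n = 3). MT-ND4 was the exception among the 4, with every NSun6 library below 28.1%. No NSun3 library reached 0.5% in any gene, with or without replicate 3.

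**Figure D4:**
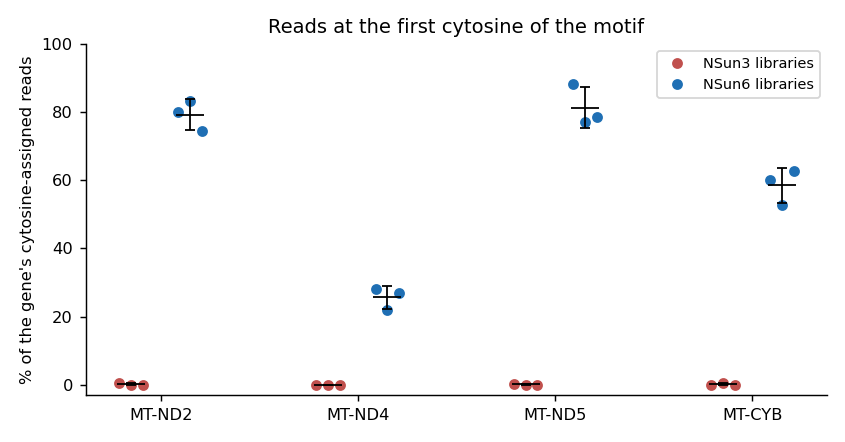
Percent of each gene's cytosine-assigned miCLIP reads at the first cytosine of the motif, with points for single libraries (3 per enzyme) and bars for mean ± SD. Truncations at the T of the motif are counted at its first cytosine. NSun6 libraries lie at 74.4% to 83.3% in MT-ND2, 21.8% to 28.0% in MT-ND4, 77.2% to 88.3% in MT-ND5 and 52.7% to 62.8% in MT-CYB, and NSun3 libraries lie near 0 in all 4.

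The sites named next were chosen for their RPM in 1 of the enzymes, so their differences between enzymes are a description, with no test. The strongest NSun6 site of the 4 mRNAs was base 583 of MT-CYB, with 2164, 1865 and 2335 RPM in the NSun6 libraries and 0, 56.6 and 0 RPM in the NSun3 libraries. It alone held 51.1% to 60.6% of the cytosine-assigned MT-CYB reads in NSun6. It had 2286 reads in NSun6 and 3 in NSun3, a ratio of RPM over the groups of 166 with a 95% counting interval of 56.8 to 807. The second MT-CYB motif site, base 919, was weaker, with 71.0, 57.7 and 81.9 RPM in NSun6 and 0 in NSun3.

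MT-ND5 had the most motif sites. Base 685 had 1204, 791 and 1054 RPM in NSun6 and a single read in NSun3. Base 1566 had 762, 646 and 632 RPM in NSun6 and 2 reads in NSun3. Bases 255, 912 and 1713 had 311 ± 19.9, 222 ± 37.2 and 127 ± 20.7 RPM in NSun6 (n = 3) and no read in NSun3. Against 3 reads over the NSun3 group (12.5 RPM), the limit that a count of 0 allows, they were at least 24.9-fold, 17.2-fold and 10.04-fold higher in NSun6. The 3 stronger of the 5 read as follows, again with the motif in capitals.
MT-ND5 NSun6, base 685, chrM:13012-13032: ccaattaggtCTCCAcccctg
MT-ND5 NSun6, base 1566, chrM:13893-13913: cattttatttCTCCAacatac
MT-ND5 NSun6, base 255, chrM:12582-12602: tagactacttCTCCAtaatat

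In MT-ND2 the only NSun6 site, base 666, had 170, 137 and 190 RPM in NSun6 and no read in NSun3, and was at least 12.9-fold higher in NSun6. In MT-ND4 the 2 motif sites, bases 634 and 819, had 209 ± 54.0 and 113 ± 41.4 RPM in NSun6 and no read in NSun3, at least 16.3-fold and 9.02-fold higher. The leading MT-ND4 cytosine, base 1222, had no motif at its place but followed a ctcc stretch, with 293, 165 and 269 RPM in NSun6 and 36.0, 75.4 and 0 RPM in NSun3. Base 322 of MT-CYB had 61.7, 57.7 and 45.8 RPM in NSun6 and no read in NSun3. The other NSun6 sites of MT-CYB were bases 81, 86, 96, 106 and 109, where NSun3 replicate 1 also had reads. At bases 81, 86 and 109 the log2 fold changes were 1.81 ± 0.92, 0.82 ± 0.71 and 1.53 ± 0.83 (SE), with signs that changed when mtDNA cytosines were fitted alone and, at bases 86 and 109, with RLE scaling. Without NSun3 replicate 3, base 81 stood at 1.95, and without NSun3 replicate 1 bases 81, 86 and 109 stood at -0.20, -2.04 and -1.73. Bases 81, 86 and 109 had 0 RPM in NSun3 replicate 3.

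NSun3 sites were more numerous by the 50 RPM rule, which needed fewer reads in NSun3, and varied more between libraries. In MT-CYB, base 461 had 2160, 1924 and 42.2 RPM in NSun3 replicates 1, 2 and 3 and 0, 8.55 and 0 RPM in NSun6. Base 640 was the most even of the leading NSun3 sites, with 1094, 1037 and 950 RPM in NSun3 and 0 to 12.8 RPM in NSun6. Base 440 had 626, 679 and 1267 RPM and base 956 had 346, 189 and 1563 RPM in NSun3. Base 416 had 1922 and 660 RPM in replicates 1 and 2 and no read in replicate 3. Bases 416, 440 and 461 lay close together, and the 100 bases from 401 to 500 took 30.1% ± 7.91 of the MT-CYB reads in NSun3. For NSun6 the leading 100 bases of MT-CYB were those from 501 to 600, with 64.5% ± 3.45.

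In MT-ND2 the leading NSun3 cytosine, base 358, had 929, 736 and 655 RPM in NSun3 and 0, 0 and 16.4 RPM in NSun6. It held 28.4% to 41.3% of the cytosine-assigned MT-ND2 reads of each NSun3 library, the largest share of any NSun3 site in its gene. In MT-ND4, base 472 had 1605, 2018 and 338 RPM in NSun3 and 0, 6.42 and 0 RPM in NSun6. Base 384 had 137, 1282 and 0 RPM in NSun3, so that 1 library set its mean of 473 RPM. In MT-ND5, base 1359 had 1130, 1471 and 0 RPM in NSun3 and no read in NSun6. It did not pass the filter of the test. Against the limit for NSun6 (3 reads over the group, 2.73 RPM), its 235 reads put it at least 359-fold higher in NSun3. Base 258 of MT-ND5 had 295, 981 and 1183 RPM in NSun3 and base 676 had 885, 434 and 528 RPM, and neither had a read in NSun6.

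Of the 858 cytosines of the 4 mRNAs with any read, 43 passed the filter on low counts. Of these 26 were called higher in NSun3 and 11 lower, beside 17.5% and 70.8% of all 1736 cytosines tested, of which 88.2% were called. With mtDNA cytosines fitted alone the split was 9 higher and 14 lower, and without assignment to a cytosine 16 truncation positions were higher and 17 lower. Without the filter on low counts 118 were higher and 18 lower, and without NSun3 replicate 3 the test called 73 higher and 15 lower. Shares over all cytosines were taken only for the fit that called 26 and 11, so the other splits have no background beside them. The median log2 fold change over the cytosines tested was -7.20 in that fit. It was -2.34 without the filter, -6.63 without NSun3 replicate 3 and -1.39 with mtDNA cytosines alone. The ranges of NSun3 and NSun6 RPM did not overlap at 37 of the 43, with NSun3 above at 26 and below at 11, beside 16.5% and 72.8% of all cytosines tested. A cytosine high in 1 enzyme alone can pass this filter, so these counts describe the sites and are not a test of the genes. Among all sites, 42 of the 90 for NSun3 had no NSun6 read and 9 of the 18 for NSun6 had no NSun3 read. Of the 858 cytosines with any read, 636 had NSun3 reads and 518 had NSun6 reads. Reads of 1 enzyme alone were thus also common outside the sites, and these counts are not particular to them.

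The bases around the sites also differed. NSun6 sites were followed by T in 17 of 18 cases, against 29.9% of all cytosines in the 4 genes, and the motif accounts for 10 of them. NSun3 sites followed a C in 60 of 90 cases (66.7%, against 33.5% of all cytosines) and preceded an A in 54 (60.0%, against 29.7%), and 47 lay in a run of at least 3 cytosines (52.2%, against 26.1%). With 2 cytosines equally close the 5′ one was taken, and this rule can shape these shares. In both enzymes the most frequent truncation lay 1 base 3′ of the assigned cytosine, with 50.3% ± 3.62 of reads for NSun3 and 52.6% ± 2.46 for NSun6 (n = 3), followed by the cytosine itself with 28.0% ± 3.57 and 33.7% ± 2.77. NSun3 sites fell on codon positions 1, 2 and 3 in 33.3%, 24.4% and 42.2% of cases, near the 27.9%, 28.3% and 43.8% of all cytosines. NSun6 sites fell there in 8, 1 and 9 of 18 cases.

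Some sites of both enzymes lay a few bases apart. Of the 18 NSun6 sites, 10 had an NSun3 site within 10 nt, beside 30.2% of all cytosines of the 4 genes, and the median distance was 9.5 nt. Of the 10, 4 were the shared sites themselves, which lay with base 96 in 1 stretch of MT-CYB, bases 81 to 109. The 30.2% also counts cytosines with no read of either enzyme, and it is not matched to the mix of genes. MT-CYB held 8 of the 18 NSun6 sites and 391 of the 1835 cytosines. In MT-ND4, NSun6 reads were at base 634 and NSun3 reads at base 637, the first and the last C of the same CTCCA. In MT-ND5 the same pair was bases 255 and 258. The NSun3 cytosines of both pairs are shown here with the cytosine in capitals, and are the last C of the motif in its own context.
MT-ND4 NSun3, base 637, chrM:11387-11407: ttacggactcCacttatgact
MT-ND5 NSun3, base 258, chrM:12585-12605: actacttctcCataatattca
Read over all 16 occurrences, a comparison chosen after these values were seen, NSun3 libraries had reads at the last C in 11 and at the first C in 4, and NSun6 libraries at the last C in 2 and at the first C in 13. Truncations at the T of the motif were counted at its first C. At base 637 NSun3 stood at 394 ± 320 RPM and at base 258 at 819 ± 465 RPM, and elsewhere the last C had at most 78.1 RPM. Only at those 2 bases did all 3 NSun3 libraries have reads.

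Reads on the opposite strand were fewer than on the mRNA strand in every gene and library. In MT-CYB they made up 0% to 0.70% of the reads of both strands in every library. The NSun3 libraries ranged from 0% to 27.9% in MT-ND2, 0.98% to 15.4% in MT-ND4 and 4.95% to 10.2% in MT-ND5, and the upper values of MT-ND2 and MT-ND4 both came from the library labelled NSun3 replicate 3, with 29 and 32 opposite reads. The first 7 bases of MT-ND4 are also the last of MT-ND4L and held 0 to 7 reads per library. Of the start positions in MT-ND2, 57.7% opened a stretch of 30 nt that also occurs in a nuclear chromosome, against 22.6% in MT-ND4, 16.9% in MT-ND5 and 7.54% in MT-CYB. MT-ND2, with the largest such share, had the fewest reads of the 4 genes and no reads in 3 of its 11 windows of 100 bases for either enzyme, and the part of these copies in its level was not tested.

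Bisulfite sequencing leaves 5-methylcytosine, and also 5-hydroxymethylcytosine, as C and reads unmodified cytosines as T, and the level is the percent of reads with C. Of the 1835 cytosines of the 4 mRNAs, 1615 had a coverage over 5 reads and 1426 of these (88.3%) had a level of at least 20%. MT-ND2 had 164 such cytosines of 165 covered, MT-ND4 had 423 of 455, MT-ND5 had 593 of 619 and MT-CYB had 246 of 376. Median levels were 91.2%, 87.9%, 78.1% and 56.5%. These values do not show isolated sites. None of the 1426 stood alone, and 99.3% lay in runs of 5 or more neighbouring covered cytosines that all reached 20%, the longest from base 717 to base 1808 of MT-ND5 with 390 cytosines.

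Of the 349 MT-ND2 cytosines, 165 had a coverage over 5 reads and 129 had no reads. Over cytosines with a coverage over 5 reads, median coverage on the mRNA strand was 23 reads in MT-ND2, 174 in MT-ND4, 158 in MT-ND5 and 84 in MT-CYB. At G positions, which read the opposite strand, it was 702.5, 5024.5, 5607 and 1759 reads, and median levels were 4.55%, 4.12%, 3.28% and 4.12%. In nuclear exons annotated on 1 strand, the sense strand held the bulk of the reads (mean coverage of 135 reads against 18.7 on the other), with 0.13% of sense reads and 3.77% of opposite reads unconverted. What led to the levels of the 4 genes was not tested, and intervals below cover counting error only.

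**Figure D5:**
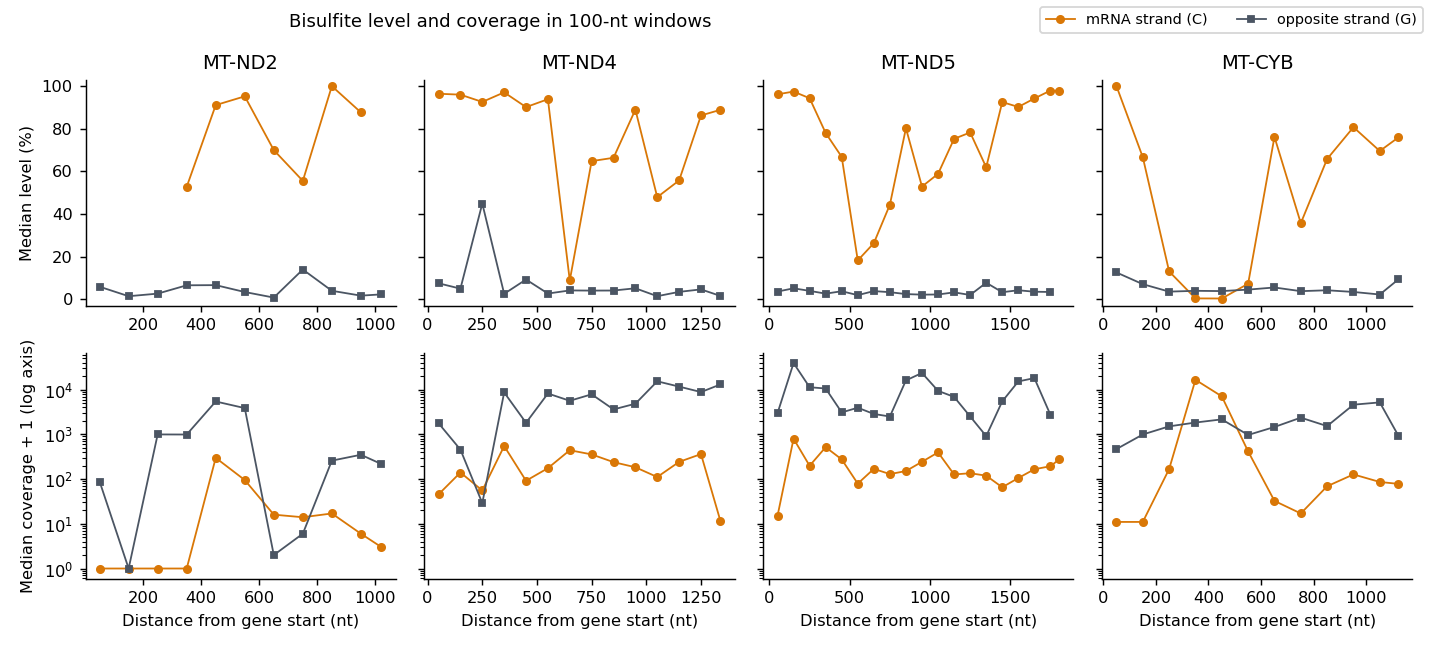
Median bisulfite level (top, %) and median coverage plus 1 (bottom, log axis) in windows of 100 nt along the 4 mRNAs, for cytosines of the mRNA strand (orange, C) and of the opposite strand (grey, G), from 1 pooled table. The mRNA strand lies above 50% in most windows, and only in MT-CYB does it fall below 1%, where its coverage exceeds 1000 reads. Coverage medians are over all cytosines of a window, and level medians over those with a coverage over 5 reads.

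A stretch of MT-CYB was the opposite case. From base 322 to base 492 all 50 cytosines had a coverage of at least 1000 reads, up to 23453, and a median level of 0.40% (0.20% to 3.01%). This stretch held 94.9% of the bisulfite reads on MT-CYB cytosines, and outside it the median level was 65.7%. No cytosine of the other 3 genes reached a coverage of 1000 reads. Of the 5 leading NSun3 bases of MT-CYB, 416, 440 and 461 fall in this stretch, and 640 and 956 lie outside it. Base 461 had 62 unconverted of 6981 reads (0.89%, exact 95% interval 0.68% to 1.14%), above the 0.29% to 0.65% of the 12 covered cytosines within 20 nt. Base 416 had 71 of 22657 reads (0.31%, 0.24% to 0.40%), below all 11 of its covered neighbours (0.33% to 0.68%).

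The leading sites outside this stretch that had coverage lay within the range of their neighbours, as read at up to 3 leading sites per enzyme and gene. Base 583 of MT-CYB, the strongest NSun6 site, had 40 unconverted of 406 reads (9.85%, exact 95% interval 7.13% to 13.2%), and its 15 covered neighbours within 20 nt had 9.25% to 10.8%. Base 685 of MT-ND5 had 18.9% of 159 reads beside a neighbour median of 21.7%, and base 634 of MT-ND4 had 7.55% of 437 reads beside 8.02%. Base 472 of MT-ND4, the leading NSun3 site there, had 94.6% of 92 reads beside 92.4%. Base 358 of MT-ND2 had no bisulfite reads. Over all sites with coverage, 68 of 87 NSun3 sites (78.2%) and 14 of 18 NSun6 sites (77.8%) reached 20%, against 89.0% of the 1514 covered cytosines that were no site. The genes differed in these shares. In MT-ND4 80% of NSun3 sites and 2 of 3 NSun6 sites reached 20% beside 93.9% of the other cytosines. In MT-ND5 22 of 23 NSun3 sites (95.7%) and 5 of 6 NSun6 sites reached 20% beside 95.9% of the other cytosines. In MT-CYB 62.9% of NSun3 sites and 75% of NSun6 sites did so beside 65.9%. In MT-ND2 all covered sites did so beside 99.4%. The pooled shares also rest on the mix of genes. MT-CYB held 35 of the 87 NSun3 sites, 8 of the 18 NSun6 sites and 337 of the 1514 others.

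The highest levels at a coverage of at least 100 reads, the first of equals being named, were 100% at base 38 of MT-ND4 (167 reads, exact 95% interval 97.8% to 100%) and at base 1781 of MT-ND5 (271 reads, 98.6% to 100%), 96.5% at base 913 of MT-CYB (113 reads, 91.2% to 99.03%) and 96.2% at base 543 of MT-ND2 (104 reads, 90.4% to 98.9%). None of these 4 cytosines was a site of either enzyme. Lower among the 5 leading cytosines of each gene, base 520 of MT-ND2, base 304 of MT-ND4 and base 1738 of MT-ND5 were NSun3 sites. None of the 5 of MT-CYB was a site. The contexts of the 4 cytosines with the highest levels are shown with the cytosine in capitals.
MT-ND2 bisulfite, base 543, chrM:5003-5023: tcttagcataCtcctcaatta
MT-ND4 bisulfite, base 38, chrM:10788-10808: atattactacCactgacatga
MT-ND5 bisulfite, base 1781, chrM:14108-14128: ttcttcttccCactcatccta
MT-CYB bisulfite, base 913, chrM:15650-15670: agcaataatcCccatcctcca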

How the data were processed

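The 6 miCLIP libraries (3 NSun3, 3 NSun6) were deposited by the authors as read counts per truncation position and strand, after removal of reads with the same random barcode, adapter trimming and unique Bowtie alignment to hg19. The bisulfite table was deposited as the percent of unconverted reads per cytosine with methylated and unmethylated read counts, made by the authors with Bismark from 2 samples in 1 table. Versions of Bowtie and Bismark are not given in the sources used here.

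From these files, truncation reads were summed per gene on its own strand (GRCh37 annotation, mtDNA moved by 1 nt, at which all but 7 of 2244 bisulfite positions in the 4 genes fall on C or G) and per cytosine within 2 nt. RPM was taken over all reads of a library. Counts of all genes, and of all cytosines, were fitted with edgeR 4.0.16 in R 4.3.3 (TMM, filterByExpr, quasi-likelihood, Benjamini-Hochberg threshold 0.05, positive for higher in NSun3, SE as the fold change over the root of F). Shares were compared by exact two-sided permutation tests. Alternatives were RLE and library-total scaling, DESeq2 1.42.0, no filter, mtDNA genes alone, a replicate block and 1 library left out. The fits were tried on simulated counts with as many rows raised as lowered. These data differ from that setting, with 83.1% of genes called lower in NSun3, so the simulation is no support for the calls. Nuclear copies were exact matches of 30 nt to nuclear chromosomes. Bisulfite cytosines needed a coverage over 5 reads, as in the study, and intervals are exact binomial at 95%.

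Named were the 4 genes, the other 9 mtDNA mRNAs, up to 5 leading sites per enzyme and gene, up to 5 leading bisulfite cytosines per gene, and the 2 most alike mtDNA genes. Bases 634, 637, 255 and 258 were also singled out after their values were seen. The members and lists were chosen with earlier results of these data known. Libraries held 47352 to 467586 reads, and intervals and limits cover counting error only.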

Additional observations from a re-analysis of the deposited data

How the results depend on the processing

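Of 445 recomputed values, 396 were labelled the same, 12 lost the threshold, 1 gained it, 17 moved and 19 changed sign. Fold changes were the same if they kept direction and side of the threshold, and share differences if they kept direction alone. Counts were the same within a fixed ratio of the main count and moved beyond it, whatever the spread. By this rule 131 NSun3 sites above 20 RPM were the same as the 90 of the main setting. Where a value changed, the cause was not tested. Of the 4 genes called higher in NSun3, 2 were called without the filter on low counts, 1 with mtDNA genes alone and 0 with a replicate block. Deviations from the group means correlated little between libraries of the same replicate number (0.047, 0.051 and -0.0006). Of the genes tested 83.1% were called lower in NSun3, so these values cannot show whether the libraries were paired. The replicate block fit gave log2 fold changes of 3.99 in MT-ND2, 3.32 in MT-ND4, 2.24 in MT-ND5 and 2.52 in MT-CYB. It called 34 cytosines. With mtDNA genes alone MT-ND4 stood at 0.42, MT-ND5 at -0.72 and MT-CYB at -0.40. MT-ND5 stood at 0.56 with RLE, 1.15 in DESeq2 and 1.30 without the filter, where MT-CYB stood at 1.72. Leaving out 1 library at a time left all 4 called, with ranges of 3.14 to 4.85, 2.84 to 4.26, 1.60 to 2.94 and 1.82 to 3.36 in MT-ND2, MT-ND4, MT-ND5 and MT-CYB.

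Cytosines called numbered 37, against 136 without the filter, 23 with mtDNA cytosines alone and 39 (without NSun6 replicate 1) to 88 (without NSun3 replicate 3) when 1 library was left out. In MT-CYB, base 109 stood at -0.16 with RLE, -1.36 with mtDNA alone and -1.73 to 1.64 with a library left out, base 81 at -1.08 with mtDNA alone and -0.20 to 1.95, and base 86 at -0.88 with RLE, -0.48 without the filter, -0.33 in DESeq2, -0.026 with the replicate block, -2.12 with mtDNA alone and -2.04 to 0.78. All 3 turned negative without NSun3 replicate 1. The difference in share of mtDNA reads (NSun3 minus NSun6, percentage points) became 1.33 in MT-ND5 and -1.14 in MT-CYB with each truncation position counted once, 0.086 in MT-ND5 without MT-TM, -0.012 in MT-CYB without positions that match nuclear DNA, and -0.35 to 0.32 in MT-CYB with a library left out.

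NSun3 sites numbered 53 above 100 RPM, 24 in all 3 libraries and 27 (without NSun3 replicate 1) to 81 (without replicate 3) with a library left out. NSun6 sites numbered 35 above 20 RPM, 10 above 100 RPM, 11 in all 3 libraries and 11 (without NSun6 replicate 2) to 15 with a library left out. Cytosines with a bisulfite level of at least 20% numbered 916 at a coverage of at least 100 reads. The limit that a count of 0 allows, 3 reads over the group, was 12.5 RPM for NSun3 and 2.73 RPM for NSun6.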

Other observations

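Bisulfite levels of the other 9 mtDNA mRNAs, read on each mRNA's own strand, covered a wider range than those of MT-ND2, MT-ND4, MT-ND5 and MT-CYB. Over cytosines with a coverage over 5 reads, the median level was lowest in MT-CO1, a complex IV subunit mRNA, at 1.78%. It was highest in MT-ATP8, a complex V subunit mRNA, at 98.3%. The median coverages of these cytosines were 568 and 324 reads. Of their 1540 covered cytosines 897 (58.2%) had a level of at least 20%. MT-ND6, the mRNA encoded on the other strand, had a median level of 22.8% on its own strand and 87.4% on the strand opposite to it. These values come from 1 pooled table and have no replicate error.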
